A study of Arabidopsis thaliana with 6 samples.

Results

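A set of 56 probe sets of 22746 on the ATH1 array was lower after 5 h of estradiol in both pairs of arrays, while the pair taken at 3 h differed little. A probe set is a group of short array probes read as 1 transcript. Members had to reach the filter, which was the 40th percentile of all values in the table, in at least 2 of 6 arrays, as 14520 probe sets did. Their difference, estradiol minus DMSO on the log2 scale between the arrays of equal time and replicate number, had to be at least 1.5-fold downward in both 5 h pairs and between −0.3 and 0.3 at 3 h. This gave 59 probe sets, from which XTH33, UGT72E1 and UGT76C2 were left out by name. The differences thus chose the members, and they are given below as a description with no test.

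All 6 samples were shoots of 2-week-old Arabidopsis thaliana seedlings, Col-0, that carried the same construct (MYB112-IOE, line 1), in which estradiol switches on the transcription factor MYB112. The seedlings had been moved from agar plates to shaken liquid medium for 16 h, and then received 10 µM β-estradiol, while controls were treated with DMSO. There was 1 array per treatment at 3 h and there were 2 per treatment at 5 h. The study asked which genes respond early to MYB112. Plants without the construct that received estradiol were not analysed here, a single transgenic line was used, and the sources used here do not say which promoter drives the induction system. MYB112 itself was named on 0 probe sets of the annotation, so its level was not analysed here.

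As background, an estradiol-inducible construct lets transcripts be followed from the moment a transcription factor is switched on. Direct targets of such a factor are usually sought among the earliest responses. R2R3-MYB proteins such as MYB112 bind DNA and are known in plants for controlling pigment synthesis, stress responses and development. MYB112 itself is known as a promoter of anthocyanin formation under salinity and high light.

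Levels were comparable within pairs only, since each pair of arrays had its own lowest value (2.1, 2.14 or 2.16) and appeared to have been normalized separately. Over the 14520 probe sets the SD of the difference was 0.26 at 3 h, 0.33 in 5 h pair 1 and 0.41 in 5 h pair 2. At least 1.5-fold lower values were found in 351 probe sets in pair 1 (2.42%) and in 998 in pair 2 (6.87%). The mesophyll genes LHCB4.1 and RCA, which serve light harvesting and carbon fixation, lay between 12.72 and 13.84 in all arrays. The root hair genes EXPA7 and EXPA18 did not exceed 2.96, as 2 named root markers of 8.

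**Figure D1:**
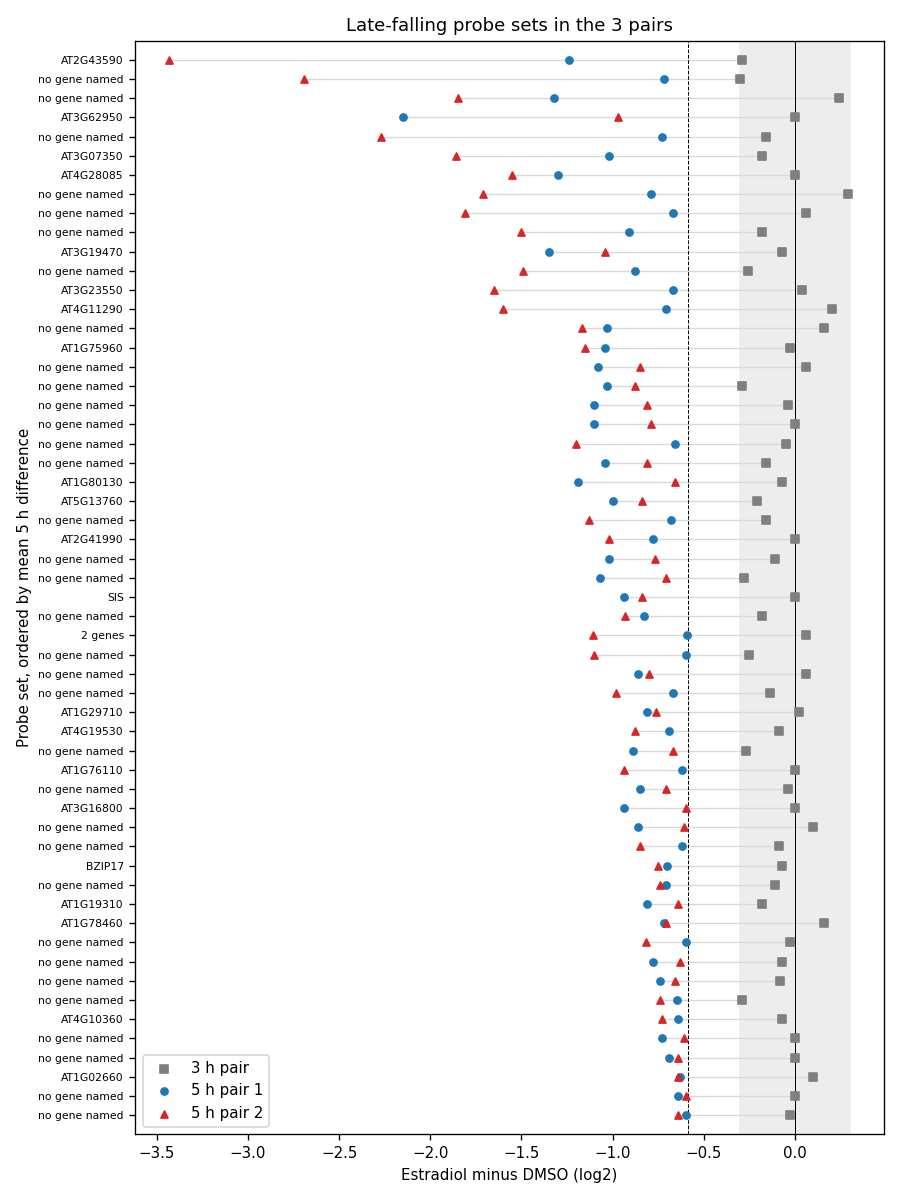
Estradiol minus DMSO differences (x axis, log2) of the 56 members (y axis, ordered by their mean 5 h difference) in the 3 h pair (grey squares) and the 5 h pairs 1 (blue circles) and 2 (red triangles). The dashed line marks a 1.5-fold lower level and the grey band the 3 h window of −0.3 to 0.3, both fixed by the rule; the 5 h differences run from −0.59 down to −3.43.

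Of the 56 members, 21 had 1 named gene, 1 had several genes and is not named, and 34 were not listed in the annotation and are unnamed here. The median difference of the members was −0.80 in 5 h pair 1 and −0.85 in pair 2, against −0.05 at 3 h. Over all 14520 probe sets the medians were 0.00, −0.04 and −0.01. Only 7 members were at least 2-fold lower in both 5 h pairs, 10 in pair 1 alone and 13 in pair 2 alone, and 26 were under 2-fold in both. The 2 pairs differed by no more than 0.1 for 14 members and by more than 0.5 for 15, and the median SD between them was 0.17 (n = 2 pairs). In arrays made from whole shoots, fewer cells of a type and less RNA per cell cannot be told apart.

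The 21 named genes encode proteins of different kinds. They are described below in the order of defence and cell wall, regulation, transport and metabolism, and remaining proteins.

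AT2G43590, a family 19 chitinase of the kind that cuts chitin in fungal walls, had the largest mean difference of all members. Its level was 8.15 in DMSO and 6.91 with estradiol in 5 h pair 1, 7.55 and 4.12 in pair 2, and 8.33 and 8.04 at 3 h. The estradiol arrays lay below the DMSO arrays at both times, and the gap was widest in pair 2. The mean 5 h difference was −2.34 (SD 1.55, n = 2 pairs), a 5.05-fold lower level, and that SD shows how far the pairs were apart. AT4G11290, a class III peroxidase of the secreted type that acts on cell wall phenolics, was at 6.89 in DMSO and 6.18 with estradiol in pair 1 and at 6.31 and 4.71 in pair 2. At 3 h it was at 9.03 and 9.23, so the estradiol array was the higher of that pair. Its mean 5 h difference was −1.16 (SD 0.63, n = 2 pairs). AT4G19530 encodes a TIR-NBS-LRR protein, a class of intracellular immune receptors. Its DMSO and estradiol levels were 8.84 and 8.15 in pair 1, 8.09 and 7.21 in pair 2, and 8.40 and 8.31 at 3 h. The difference was alike in both 5 h pairs, with a mean of −0.79 (SD 0.13, n = 2 pairs).

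Among regulators, AT3G62950, a CC-type glutaredoxin (a small redox protein of a plant-specific class), was at 4.86 in DMSO and 2.71 with estradiol in 5 h pair 1 and at 3.59 and 2.62 in pair 2. At 3 h both arrays were at 2.1, the lowest value of those arrays, so a lower value with estradiol could not have been seen there. It is also the 1 member that passed the filter through the 5 h DMSO arrays alone. BZIP17, a membrane-anchored transcription factor that is released by proteolysis during endoplasmic reticulum and salt stress, was at 6.76 and 6.06 in pair 1, at 6.72 and 5.97 in pair 2, and at 6.67 and 6.60 at 3 h. The differences of its 2 pairs nearly coincided, and the mean 5 h difference was −0.73 (SD 0.04, n = 2 pairs). AT3G16800 (EGR3), a type 2C protein phosphatase of the growth-regulating clade E, was at 7.47 and 6.53 in pair 1, at 5.94 and 5.34 in pair 2, and at 6.64 in both 3 h arrays. Its difference of −0.60 in pair 2 lay close to the threshold, and the gene left the set under each of the 3 rescalings tried (pair 2 difference −0.48, −0.52 and −0.55).

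AT1G76110, with an HMG box and an ARID domain that bind DNA, was at 6.62 and 6.0 in pair 1 and at 5.05 and 4.11 in pair 2. Its 3 h values were 3.10 in both arrays, under the filter. AT1G19310, a RING-type protein of the class that includes ubiquitin ligases, was at 7.74 and 6.93 in pair 1, 8.13 and 7.49 in pair 2, and 8.53 and 8.35 at 3 h. It too left the set under each rescaling, with pair 2 differences of −0.55, −0.56 and −0.58. AT3G19470, an F-box protein of the type that selects targets for ubiquitination, was at 5.07 and 3.72 in pair 1, 5.10 and 4.06 in pair 2, and 5.51 and 5.44 at 3 h. Its mean 5 h difference was −1.20 (SD 0.22, n = 2 pairs).

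Among transport and metabolic genes, AT3G23550, a MATE-type efflux carrier, was at 10.17 in DMSO and 9.50 with estradiol in pair 1 and at 6.82 and 5.17 in pair 2. At 3 h it was at 10.36 and 10.40. The difference was larger in pair 2, with a mean of −1.16 (SD 0.69, n = 2 pairs). AT1G75960, an AMP-dependent synthetase and ligase that belongs to the acyl-activating enzymes, was at 7.19 and 6.15 in pair 1, 6.06 and 4.91 in pair 2, and 5.39 and 5.36 at 3 h. Its difference of −1.04 and −1.15 made it one of the 7 members at least 2-fold lower in both 5 h pairs. AT5G13760, of the plasma membrane choline transporter family, was at 5.83 and 4.83 in pair 1, 5.75 and 4.91 in pair 2, and 4.28 and 4.07 at 3 h. Its mean 5 h difference was −0.92 (SD 0.11, n = 2 pairs).

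AT1G02660 (PLIP2), a plastid lipase that releases fatty acids from thylakoid lipids, was at 6.98 and 6.35 in pair 1, 6.92 and 6.28 in pair 2, and 7.20 and 7.30 at 3 h. Both 5 h differences were small and almost equal (−0.63 and −0.64), and the gene left the set under each rescaling because its pair 2 difference shrank to between −0.53 and −0.58. AT1G78460, a SOUL-type haem-binding protein, was at 9.20 and 8.48 in pair 1, 10.09 and 9.38 in pair 2, and 9.55 and 9.71 at 3 h. The 2 pairs gave −0.72 and −0.71, while at 3 h the estradiol array was 0.16 higher. AT4G10360, with a TLC domain of lipid-sensing membrane proteins, was at 6.82 and 6.18 in pair 1, 6.36 and 5.63 in pair 2, and 7.28 and 7.21 at 3 h.

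**Figure D2:**
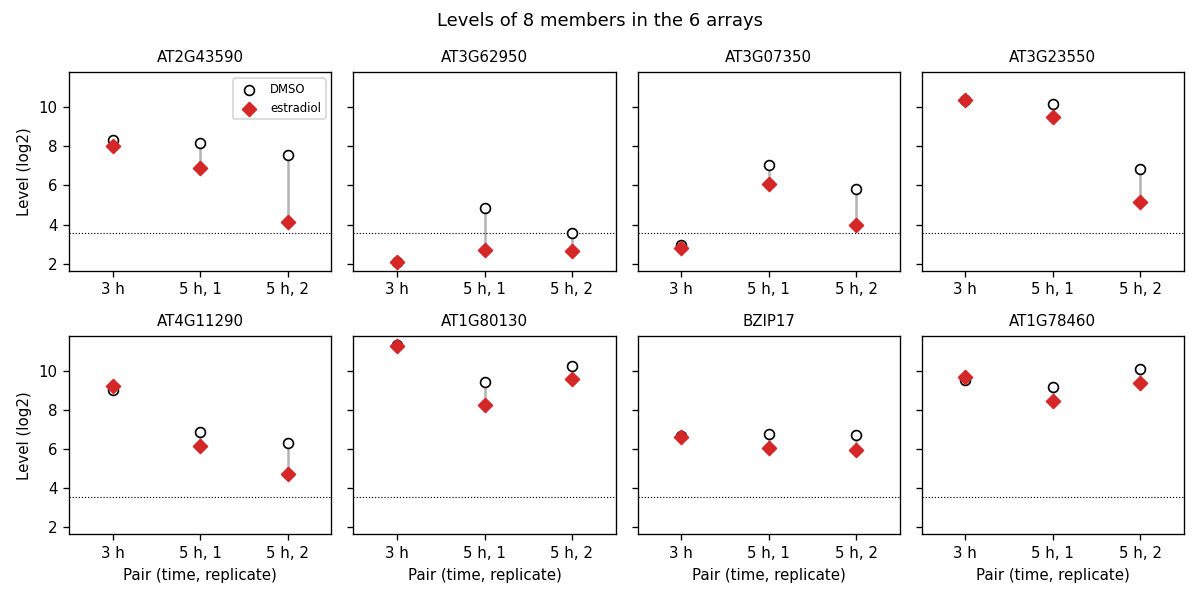
Levels (y axis, log2) of 8 members in the 6 arrays, with the DMSO array as an open circle and the estradiol array as a red diamond for each pair (x axis: 3 h, 5 h replicate 1, 5 h replicate 2) and the filter as a dotted line. In AT3G62950 and AT3G07350 both 3 h values lie under the filter, and in AT2G43590 the gap is widest in 5 h replicate 2.

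The remaining named members encode proteins of more general or unknown function. AT1G80130, a tetratricopeptide repeat protein, was at 9.44 in DMSO and 8.25 with estradiol in pair 1, at 10.27 and 9.61 in pair 2, and at 11.33 and 11.26 at 3 h. With each array centred on its median, its pair 2 difference of −0.58 no longer met the threshold. AT1G29710, a pentatricopeptide repeat protein of the type that acts on organelle RNA, was at 4.87 and 4.06 in pair 1, 4.82 and 4.06 in pair 2, and 3.86 and 3.88 at 3 h. Its difference was −0.81 in pair 1 and −0.76 in pair 2. SIS, named for being serine-rich and induced by salt, was at 4.79 and 3.85 in pair 1 and at 4.83 and 3.99 in pair 2. Both its 3 h arrays were at 2.14, near the lowest value, so the 3 h pair says nothing of this gene.

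AT3G07350, of the DUF506 family of unknown function, was at 7.07 and 6.05 in pair 1 and at 5.81 and 3.95 in pair 2. Its 3 h values of 2.96 and 2.78 were under the filter. AT4G28085 was at 3.91 and 2.61 in pair 1, 4.60 and 3.05 in pair 2, and 4.29 in both 3 h arrays. Both its estradiol values at 5 h lay under the filter, so the size of its mean difference, −1.43 (SD 0.18, n = 2 pairs), rests on values near the lower end. AT2G41990 was at 4.96 and 4.18 in pair 1, 4.79 and 3.77 in pair 2, and 4.35 in both 3 h arrays.

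The 34 unnamed members had a median mean 5 h difference of −0.89, against −0.90 in the named ones. The probe set 261927_at had the second largest mean difference of all, at −1.71 (SD 1.39, n = 2 pairs). It was at 7.41 in DMSO and 6.69 with estradiol in pair 1, 6.95 and 4.26 in pair 2, and 7.62 and 7.32 at 3 h. As in AT2G43590, most of this came from pair 2, and its 3 h difference of −0.30 lay on the edge of the window. The probe set 264872_at was at 3.73 and 2.41 in pair 1, 4.87 and 3.02 in pair 2, and 5.55 and 5.79 at 3 h. It was lower in both 5 h pairs but 0.24 higher at 3 h. Both its estradiol values at 5 h lay under the filter, so the size of its 5 h difference rests on values near the lower end. Members of the UGT, BGLU, ALDH, ATG, CML or PDF families could not be left out where the annotation gave no name.

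At 5 h both estradiol arrays were below both DMSO arrays in 34 of the 56 members, against 9.61% of all 14520 probe sets. This count sets values of one pair against those of the other, although the pairs appeared to be on separate scales, and the rule used the same arrays, so nothing is read from it. The main limma fits, at 5 h and for 5 h minus 3 h, left the pairing out, so shifts between pairs entered their spread. Limma called 0 of 56 members at 5 h (adjusted p = 1 for each, 2 arrays per treatment), where 0.0071% of 14078 probe sets were called, namely 1 that was higher. An unadjusted p under 0.05 was found for 12 members, beside 1.15% of all probe sets tested. With the replicate number as a block limma called 0 probe sets, and 52 members had an unadjusted p under 0.05 (adjusted p = 0.58 at the smallest), beside 8.29% of all. For the difference of the estradiol effect, 5 h minus 3 h, limma called 0 of 56 members (adjusted p = 1 for each) and 0.0% of 14520 probe sets, and 0 members had an unadjusted p under 0.05, beside 0.172% of all. With the block limma again called 0, and 24 members had an unadjusted p under 0.05 (adjusted p = 0.988 at the smallest), beside 2.93% of all. These contrasts were also used by the rule, so nothing is read from the counts for or against the members.

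**Figure D3:**
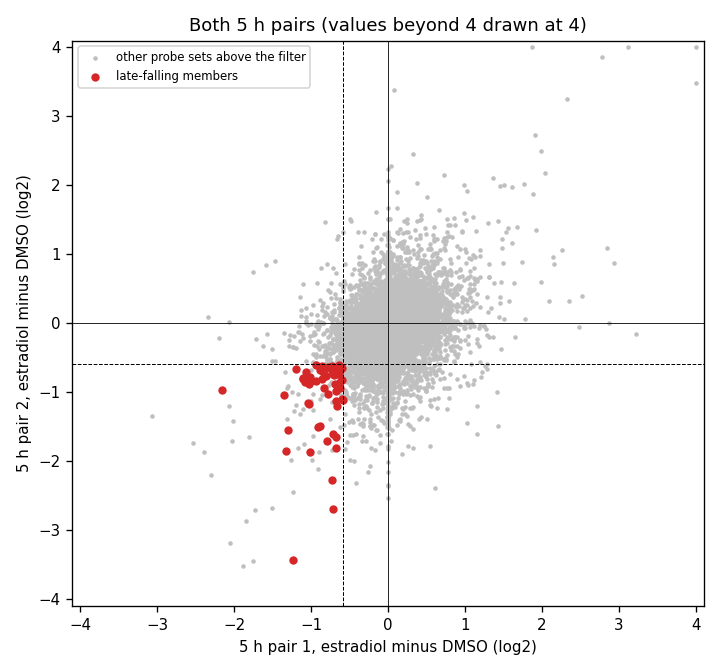
Estradiol minus DMSO differences (log2) of 14520 probe sets in 5 h pair 1 (x axis) and 5 h pair 2 (y axis), with the 56 members in red and other probe sets in grey. Dashed lines mark 1.5-fold lower levels, and grey points in the lower left corner were lower in both 5 h pairs but outside the 3 h window or left out by name.

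In all, 118 probe sets (0.813% of 14520) were at least 1.5-fold lower in both 5 h pairs, of which 59 lay within the 3 h window. Of the remainder, 23 were lower by the same threshold at 3 h, 27 were between that threshold and −0.3 there, and 9 were above 0.3. In the opposite direction 131 were higher in both 5 h pairs, and 83 met the mirrored rule. Probe sets that moved past the threshold in opposite directions in the 2 pairs numbered 11 and 40. Close to the edge of the rule, AT1G28260 (0.00, −0.94 and −0.58 at 3 h and in the 5 h pairs) and AT5G27440 (0.00, −0.58 and −0.71) stayed outside, as did AT1G23205 (0.13, −0.57 and −1.47). The named members nearest to the threshold on its inner side were AT3G16800 at −0.60, AT1G76110 at −0.62 and AT1G02660 at −0.63 in their weaker pair. APS3 missed the 3 h window at −0.34, with −0.74 and −0.85 in the 5 h pairs, as did AT5G11070 at −0.34 (−0.77 and −0.60) and AT4G24350 at 0.34 (−0.67 and −0.91).

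The rule was also applied to 1 pair of 5 h at a time, as a description of how far the pairs overlapped. The members themselves were chosen on both pairs, so neither pair is a replicate independent of them, and both counts below end in the same 56 probe sets. Of 215 probe sets chosen on pair 1, 166 were below 0 in pair 2 (77.2%, against 54.8% of all 12275 within the 3 h window) and 56 were at least 1.5-fold lower (26.0%, against 5.45%). Their median in pair 2 was −0.28, where that of all was −0.03. Of 669 chosen on pair 2, 372 were below 0 in pair 1 (55.6%, against 39.2%), 56 were at least 1.5-fold lower (8.37%, against 1.75%), and their median there was −0.04. Most of what was low in a single pair was thus not low by this threshold in the other. Higher values by the threshold were found in 2.79% and 2.99% of the 2 choices, against 3.37% and 2.93% of all. The window at 3 h was applied in both cases. Differences of exactly 0 made up 13.0% of all 14520 probe sets in pair 1 and 3.89% in pair 2. Probe sets near the lowest value count among all but could hardly be chosen, so the shares are not of like probe sets.

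**Figure D4:**
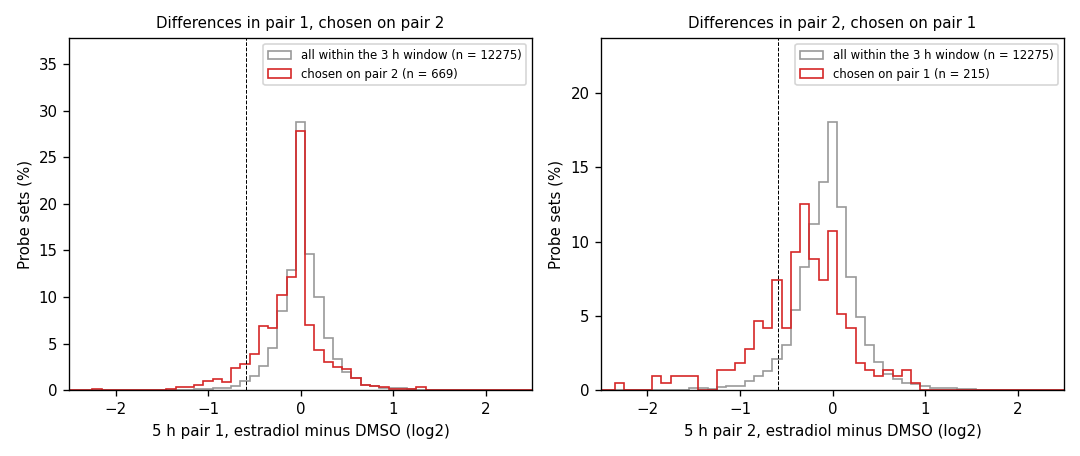
Distribution (y axis, percent of probe sets) of the estradiol minus DMSO difference (x axis, log2) in one 5 h pair, for probe sets chosen on the other pair (red, n = 669 on the left and n = 215 on the right) and for all 12275 within the 3 h window (grey). The dashed line marks a 1.5-fold lower level, and 8.37% and 26.0% of the chosen probe sets lie at or below it.

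The 3 h window was wide beside the spread of that pair, at 1.14 times its SD, and 84.8% of the 14520 probe sets lay within it. Of the members, 33 were below 0 at 3 h, 10 were exactly 0 and 13 were above 0. Exact zeros were common in these values, at 14.2% of all probe sets at 3 h. Both 3 h arrays were under the filter for 7 members, among them AT3G62950, AT3G07350, SIS and AT1G76110. For these a lower value at 3 h could hardly be measured, and that they differ at 5 h alone was not tested. In 44 members all 4 arrays of 5 h reached the filter, and in 40 all 6 did.

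The families of several named members were followed in lists drawn up after the members were known and after the values of some of their relatives had been seen, so their counts are descriptions. Of 19 genes of the endoplasmic reticulum stress pathway in which BZIP17 acts, 7 had a named probe set, and BZIP17 was the 1 member among them. Of the other 6, 0 were at least 1.5-fold apart in both 5 h pairs in either direction, with a median mean 5 h difference of 0.04. BZIP28, its close relative that is also released from the membrane, was at −0.23 at 3 h and at 0.27 and 0.12 in the 5 h pairs. BZIP60, the factor activated through splicing by IRE1, was at 0.01, 0.31 and 0.29. S1P, the protease that cuts BZIP17, was at 0.12, −0.21 and −0.30. The values of these 3 genes stayed under the threshold, and the sign at 5 h was not common to the pathway.

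In the clade of growth-regulating phosphatases, EGR1 was at −0.18 at 3 h and at 0.19 and −0.28 in the 5 h pairs, and EGR2 was at 0.00, 0.16 and −0.12. Neither was lower in both 5 h pairs. Among 14 other CC-type glutaredoxins above the filter, 0 were at least 1.5-fold lower in both 5 h pairs, beside 0.813% of all 14520 probe sets. Of the 14, 6 were below 0 in both, 2 were above 0 in both, and the median mean 5 h difference was −0.15. Some had little room to be lower. AT2G47880 (at or below 2.24) and ROXY1 (at or below 3.49) were under the filter in both 5 h pairs. ROXY2 and AT1G03020 were under it in pair 2 (at or below 2.21), and AT4G33040 in pair 1 (3.53 in DMSO and 3.5 with estradiol). AT4G15680 (−0.43 and −0.38) and AT5G18600 (−0.37 and −0.31) were lower in both pairs by less than the threshold. GRX480, which interacts with TGA transcription factors, was at −0.47 at 3 h and at 0.34 and 0.32 in the 5 h pairs. In pair 2 its values, 2.96 in DMSO and 3.28 with estradiol, were under the filter.

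Of 5 other family 19 chitinases above the filter, 0 were at least 1.5-fold lower in both 5 h pairs, beside 0.813% of all 14520 probe sets. In pair 2 AT1G02360 (2.62 in DMSO and 2.69 with estradiol) and AT2G43570 (3.08 and 3.00) were under the filter, with little room to be lower. AT1G02360 was under it in pair 1 as well (2.98 in DMSO and 3.26 with estradiol). AT3G47540 was at −0.22 and −1.80, so that only pair 2 was low, while AT4G01700 was at 0.81 and 0.08 and AT2G43620 at 0.41 and 0.13. The genes beside AT2G43590 on its chromosome, AT2G43580 and AT2G43600, lay at or below 2.18 in all arrays. PLIP3, the relative of PLIP2, did not pass the filter, and of the MATE carriers listed AT3G23550 alone had a named probe set.

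**Figure D5:**
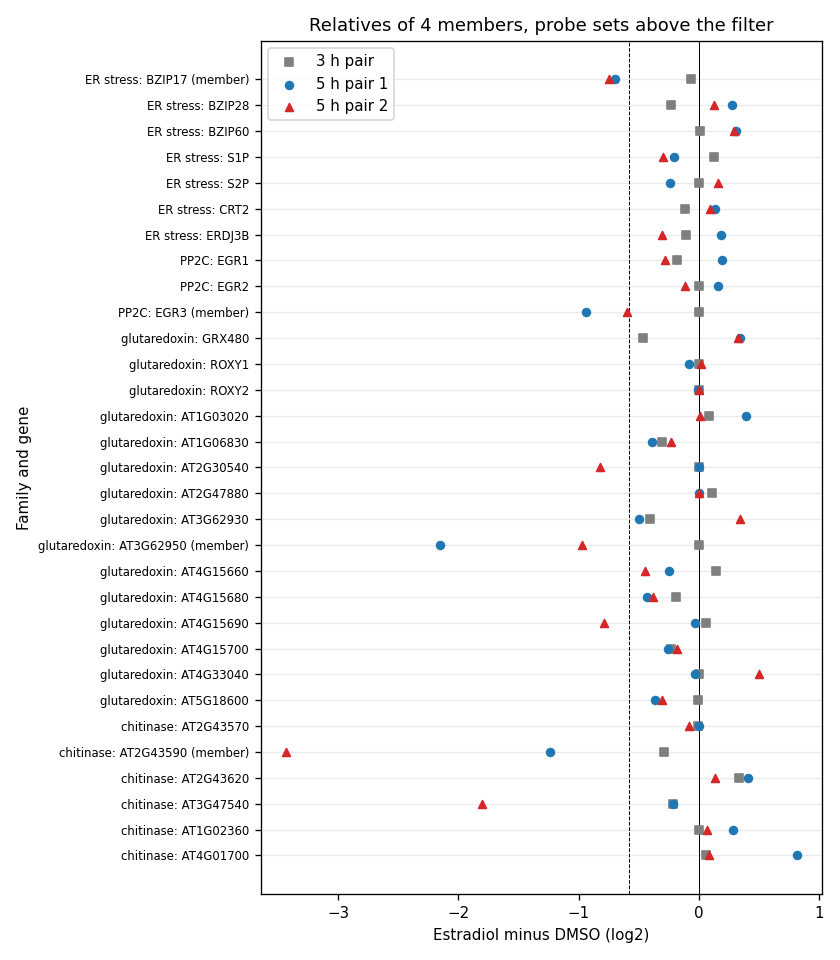
Estradiol minus DMSO differences (x axis, log2) in the 3 h pair (grey squares) and the 5 h pairs 1 (blue circles) and 2 (red triangles) for genes of 4 families (y axis) whose probe sets passed the filter. Members of the set are marked as such, and the dashed line is at a 1.5-fold lower level; no other gene shown lies left of it in both 5 h pairs.

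Direct neighbours on the chromosome were read from the RefSeq gene order of the TAIR10.1 assembly. For 16 named members, 18 neighbouring genes had a named probe set, and 10 of these passed the filter. None of the 10 was at least 1.5-fold lower in both 5 h pairs, beside 0.813% of all 14520 probe sets. Their mean 5 h differences ran from −0.54 to 0.27. The lowest was AT1G19320, beside AT1G19310, at −1.07 in pair 1 and 0.00 in pair 2. Both its pair 2 arrays were at 2.57, under the filter, so a lower value could hardly be measured there. Of the 18, 0 were members, and neighbours of the members with no named gene could not be looked up.

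Other genes were followed in 10 pathway lists of general knowledge (clock, starch, auxin, cell wall, cytokinin, abscisic acid and cold, nitrate and sulfate, light harvesting, low oxygen and iron) and 5 lists of cell type markers. Of their 168 entries, 30 had a named probe set and 23 of these passed the filter, of which 0 were members. Entries with no named probe set could not be looked up, also not among the 34 members without a name. HAT2 of the auxin list (−0.64 at 3 h, −1.22 and −1.27 in the 5 h pairs) and, of the low-oxygen list, PDC2 (−0.36, −0.60 and −0.81) and HRA1 (−2.64, −1.73 and −2.70) were lower in both 5 h pairs but also lower at 3 h, which kept them out. The 4 genes of the starch list had a median mean 5 h difference of −0.21, against −0.01 over all probe sets. The medians were −0.33 for 4 auxin genes, −0.11 for 2 cell wall genes, −0.25 for 4 abscisic acid and cold genes and −0.07 for 2 light harvesting genes. GI of the clock list had a mean 5 h difference of −0.46, ARR16 of the cytokinin list one of 0.47 and PYE of the iron list one of −0.13. The nitrate and sulfate list had 0 named genes, as did the vascular and flower markers, and the trichome marker TRY was at most at 2.70. Over the 50 probe sets of all lists that passed the filter and were no members, limma called 0 of the 47 it could test at 5 h, up or down, and an unadjusted p under 0.05 was found for 3, and for 9 with the replicate block, beside the 1.15% and 8.29% of all probe sets given above.

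Markers of the stomatal lineage were lower with estradiol mainly in pair 2. Of 7, 3 had a named probe set, and their summed level on the linear scale was 144.7 in DMSO and 124.8 with estradiol in 5 h pair 1, 50.4 and 24.1 in pair 2, and 128.5 and 130.0 at 3 h. SPCH, which starts the lineage, was at 0.03 and −1.29 in the 5 h pairs, FMA, which ends it, at −0.38 and −1.17, and MUTE lay at or below 2.22 in all arrays. In pair 2 the estradiol values of SPCH (3.17) and FMA (3.41) were under the filter. The size of their pair 2 differences thus rests on values near the lower end. The part of these markers in the lower values of the members was not tested.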

How the data were processed

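The 6 ATH1 arrays (1 per sample) were compared, grouped by the labels into estradiol and DMSO at 3 h and 5 h. The values are log2 levels that the authors deposited for each probe set. GCRMA and RMA are named, without versions or roles, per the submitters' processing notes; the sources used here do not state the log base, so base 2 was inferred from values that span 2.1 to 15.35, and every fold rests on it. Replicates carry numbers in the labels, but nothing says they came from separate cultures, so p-values reflect how far these samples lie apart, which may be technical. Precision is limited by having so few arrays, and the values come with no measure of signal over background.

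Of 22810 probe sets, 64 controls were set aside. Genes came from the platform annotation, updated to RefSeq: 13513 probe sets had 1 gene, 503 several and 8730 none listed. Differences were taken within pairs. The filter was a level of 3.56 in at least 2 arrays, and the rule's threshold a log2 difference of −0.585. Limma 3.58.1 in R 4.3.3 (lmFit, eBayes with trend, two-sided, Benjamini-Hochberg adjusted over all probe sets, called under 0.05) was fitted at 5 h and, in 4 groups, for 5 h minus 3 h. Both main fits left the pairing out, and the replicate block was an alternative. The lone arrays at 3 h were taken to vary as the 5 h arrays do. The fits were tested on simulated data with no shifts between pairs and drops larger than those of most members. How often drops like those of the members are found was not tested. Same-numbered arrays deviated together from their treatment means (correlations 0.943, 0.923 and 0.906 over probe sets, which also hold any difference of time). Same-time, same-number arrays were therefore treated as pairs in the differences and in the replicate block. Members and lists were chosen with earlier results of these data known. Genes were named if among the 20 lowest named members, on a list, near a threshold, with a symbol, neighbouring, or among the 5 highest in DMSO; as 21 members had 1 gene, all were named. The 2 unnamed probe sets given by identifier were chosen after their values were seen. Promoter motifs were not analysed here. Alternatives were scaling, filter, thresholds, variance model, block and leaving out arrays.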

Additional observations from a re-analysis of the deposited data

Results flagged for a closer look

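For 5 named members the 3 h pair moved up while both 5 h pairs moved down. The 3 h difference was 0.04 for AT3G23550, 0.20 for AT4G11290, 0.02 for AT1G29710, 0.16 for AT1G78460 and 0.10 for AT1G02660. Each is smaller than the SD of 0.26 over probe sets in the 3 h pair, which had 1 array per treatment. In the contrast of 5 h minus 3 h limma returned adjusted p = 1 for all 5 genes. The rule chose the members on these differences, so that value adds nothing.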

How the results depend on the processing

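Of 60 values recomputed under alternatives, 45 kept their size or call, and 0 reversed. Counts, limma calls and the 3 h median could not be scored as reversed. Most of the 5 h medians were of probe sets chosen to be lower, so the 0 is no sign of stability. The set held 61 probe sets after quantile normalization (46 shared with the 56) and 57 with each array centred on its median (45 shared). It held 50 after loess within pairs (48 shared). All 56 members stayed below 0 in both 5 h pairs under each of these rescalings. However, the rule had chosen them at −0.59 or lower in both pairs. Their highest 5 h difference became −0.485, −0.52 and −0.538 in the same order. With shifts this small, staying below 0 follows from the choice and says nothing of stability. With a threshold of −1 in both 5 h pairs 7 members were left, with medians of −1.24 in pair 1 and −1.55 in pair 2. With a 3 h window of under 1.5-fold in either direction 89 were found. A 3 h window of −0.2 to 0.2 kept 45 of the 56, without AT2G43590 (−0.29 at 3 h) and 261927_at (−0.3). A filter of 5 in at least 2 of 6 arrays kept 44. These counts follow from the changed rule. Leaving out replicate 1 or 2 of 5 h gave 669 and 215 probe sets. The pair 1 median then lay at −0.04 and −0.74 and the pair 2 median at −0.77 and −0.28, the values nearest 0 being those of the pair that was left out.

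At 5 h limma called 1 probe set, which is no member. The call was lost (0 called) with the replicate block (smallest adjusted p = 0.114), after quantile normalization (0.0688), with median centring (0.0774), without the filter (0.227) and without the variance trend (0.162); the cause was not tested. Leaving out 1 array at 5 h gave 0 to 1 calls, with 0 when either estradiol array was left out, where a lone array was assumed to vary like the others. For 5 h minus 3 h limma called 0 under every alternative run, the replicate block included, which with 1 array per treatment at 3 h says nothing of stability.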

Other observations

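Of the 64 control probe sets, which enter no comparison, 4 were at least 1.5-fold lower with estradiol in both 5 h pairs and 0 were higher. The share lower was 6.25%, against 0.813% of the 14520 other probe sets above the filter. They detect 25S and 5S ribosomal RNA of Arabidopsis and the 5′ and 3′ parts of the BioB hybridisation spike. These 4 were also lower at 3 h, by differences of −0.57 to −0.92, so 0 controls met the rule. The members differ from them there by the choice of the 3 h window alone. The BioB probe sets were at −0.95 and −0.85 in 5 h pair 1 and at −1.13 and −1.08 in pair 2. The members had medians of −0.80 and −0.85 in these pairs. Why the controls were lower was not tested.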
